A study of Mus musculus with 2 samples.

Results

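DEAD and DEAH box proteins are RNA helicases, enzymes that use ATP to remodel RNA or RNA-protein complexes, and they are named after a short amino acid motif in their catalytic core. Different members act in splicing, ribosome assembly, mRNA export, translation, decay and the sensing of foreign RNA. ELAVL2, also called HuB, belongs to a family of proteins that bind U-rich and AU-rich RNA and are known for effects on mRNA stability, splicing and translation.

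The genes described here are those with a Ddx or Dhx symbol and number in the authors' deposited table of ELAVL2 RIP peaks and genes, with Ddx4, Ddx6, chromosome Y and pseudogenes left out. The rule found 20 genes of 11969 in that table. A peak overlapped 13 of the 20, and the other 7 were in the table only because a peak lay near them. The samples were 1 RIP of newborn (P0) mouse ovary with an antibody to ELAVL2 and 1 input sample, taken as 5% of the lysate before the pulldown, and no genotype or treatment is given for either. Both came from a lysate of 100 pooled ovaries, so they hold germ cells and somatic cells together, and a transcript from fewer cells cannot be told apart from one with less RNA per cell. The labels list no control pulldown and no replicate, so nothing here has a replicate check, no test between the arms was possible, and binding to ELAVL2 was not separated from other ways in which RNA is retained on beads. The RIP had 172711531 aligned tags and the input 210270620, of which 7.98% and 9.26% were kept for peak calling after removal of tags at the same position. Of the ovarian marker genes listed for this work, a peak overlapped 6 of 9 oocyte genes and 1 of 7 granulosa genes (Fshr). Of the others, 1 of 4 endothelial genes (Tek) and none of 4 stromal, 3 erythroid and 3 immune genes were overlapped. A peak fell within 24.4% of all RefSeq protein-coding genes. The lists are short, the counts describe peaks and not expression, and differences between cell types were not tested.

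Peaks are described by 4 values. The pileup is the number of extended RIP tags at the summit. The fold is the authors' ratio of RIP pileup to the local input level, with 1 added to both. The input level is that local background in scaled tags, worked back from pileup and fold. The -log10 q is the authors' significance of the peak within this pair of libraries.

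The 13 overlapped helicase genes held 31 peaks. Their best fold ranged from 1.82 in Ddx5 to 7.94 in Dhx32, with a median of 3.64, against a median of 4.38 over all 6158 overlapped genes. A best fold of at least 4 was reached by 5 of the 13 (Dhx32, Ddx50, Ddx23, Ddx55 and Dhx8), where 57.2% of all overlapped genes reached it. With a pileup of at least 20 required as well, 2 of the 13 remained, Ddx50 and Ddx55, where 22.2% of all overlapped genes passed. The median of the largest -log10 q per gene was 3.98, and 5.70 over all overlapped genes. Only Ddx19b and Dhx32 held 5 or more peaks, 2 of the 13, where 27.7% of all overlapped genes did. With 13 genes these counts carry wide counting error, and nothing particular to helicases is read from them.

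The share of the family with a peak was also near the background. Of the 20 genes, 13 were overlapped (65.0%, exact binomial 95% interval 40.8 to 84.6, counting error only), and 51.4% of all genes in the table were. The RefSeq table of GRCm38.p6, the assembly of mm10, lists 50 protein-coding Ddx and Dhx genes under the same rule, of which 30 had no row in the table used here. A peak fell within the RefSeq body of 14 of the 50 (28.0%, interval 16.2 to 42.5), and within 24.4% of all RefSeq protein-coding genes. The 14 were longer than the others, with a median body of 31.5 kb against 20.0 kb, and the part of length in the count was not tested. The additional gene was Ddx51, a ribosome assembly helicase, whose RefSeq body on chromosome 5 (110653432 to 110663019) held 2 peaks with folds of 3.30 and 2.32 that the authors' table assigned to Gm42595. The RefSeq genes were 34 Ddx and 16 Dhx genes. Among genes with a row, 7 of 11 Ddx and 6 of 9 Dhx genes were overlapped, where 51.4% of all genes in the authors' table were. The difference between Ddx and Dhx genes was not tested.

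**Figure D1:**
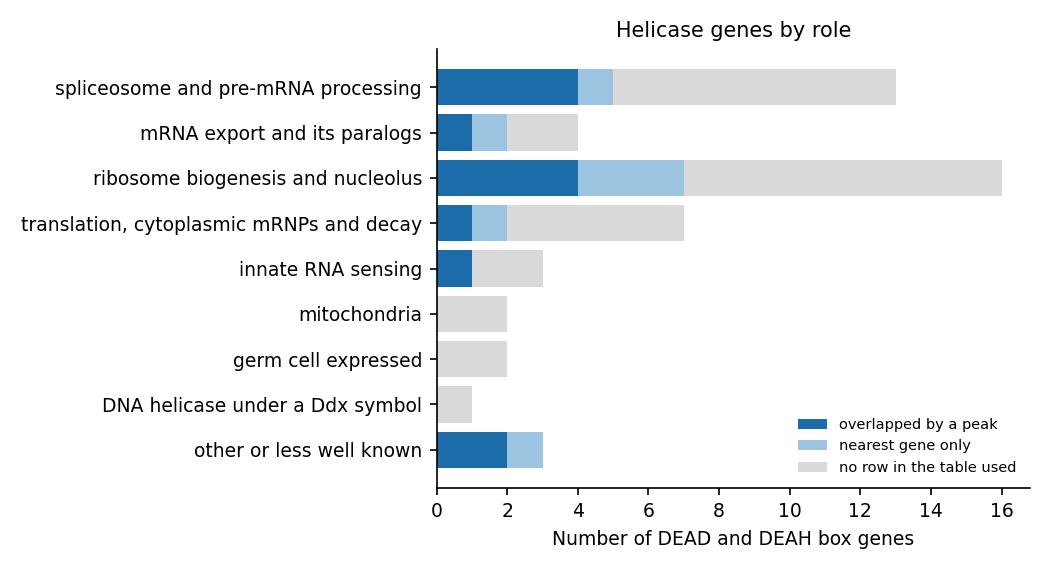
Number of Ddx and Dhx genes in the RefSeq table by known role, on a horizontal axis from 0, split into genes overlapped by an ELAVL2 RIP peak (dark blue), genes listed only as nearest to a peak (light blue) and genes with no row in the table used (grey). Ddx25 is counted in 2 lists, export and germ cell expressed. Genes overlapped in the authors' table were 4 of 13 in splicing, 4 of 16 in ribosome biogenesis, and 0 of 2 in both the mitochondrial and the germ cell lists. With RefSeq bodies, ribosome biogenesis had 5 of 16. A peak fell within the RefSeq body of 24.4% of all protein-coding genes.

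Among splicing helicases, 4 of 13 were overlapped, each by a single peak. A peak fell within 24.4% of all RefSeq protein-coding genes. The role counts here and below are small, and no role is set apart from that share. Ddx23, the U5 snRNP helicase of spliceosome activation (chromosome 15, 98645134 to 98662889), had a peak at 98661572 to 98661621 with a fold of 5.38. Its pileup was 12 tags, with an exact Poisson 95% interval of 6.20 to 21.0 for counting error only. Dhx8, which releases spliced mRNA from the spliceosome (chromosome 11, 101732919 to 101767358), had a fold of 4.57 on a pileup of only 6 (2.20 to 13.1). Both of these peaks lay in the 5′ part of the gene, at 7.24% and 16.6% of the body from its 5′ end.

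Dhx15, which acts in spliceosome disassembly (chromosome 5, 52150203 to 52190514), had a fold of 2.09 on a pileup of 38. Ddx5, the abundant helicase also called p68 (chromosome 11, 106780355 to 106789185), had a fold of 1.82 on a pileup of 42 and a -log10 q of 1.34, the lowest of the 31 peaks on both measures. These peaks lay near the 3′ end, at 90.4% and 98.2% of the body. The splicing list thus held 2 peaks of higher fold on few tags and 2 of low fold on many. Dhx35 was listed only through a peak outside it, and Ddx17, Ddx39b, Ddx41, Ddx42, Ddx46, Dhx16, Dhx38 and Dhx40 had no row in the table used.

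Ribosome biogenesis and nucleolar helicases were overlapped in 4 of 16 cases by the authors' table. With RefSeq bodies the count was 5 of 16, which adds Ddx51. Ddx50, a nucleolar helicase (chromosome 10, 62616023 to 62651218), held 4 peaks within 685 bp, between 62646056 and 62646740. Their folds were 7.39, 5.22, 3.92 and 3.88 on pileups of 20, 19, 14 and 18. The first of these had an input level of 1.84, a -log10 q of 10.2, the largest of the 31 peaks, and an interval of 12.2 to 30.9 for its pileup. The group lay between 12.8% and 14.6% of the body from the 5′ end annotated in the authors' table, and no peak was called near the 3′ end. RefSeq places the 5′ end of Ddx50 farther out, at 62658764.

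Ddx21, the closest relative of Ddx50 and also nucleolar (chromosome 10, 62580248 to 62602298), lies 13724 bp from it on the same strand. Its 2 peaks had folds of 2.57 and 1.85 on pileups of 38 and 44, at 98.4% and 97.6% of the body. The neighbouring relatives thus differed in where their peaks lay, in pileup and in fold. The values did not overlap on any of these measures. Nor did their input levels, which were 1.84 to 3.89 under the Ddx50 peaks and 14.2 to 23.4 under the Ddx21 peaks. At like input levels, the median fold of all peaks in exactly 1 gene was 4.19 to 5.12 and 2.05 to 2.56. The part of the input level in the fold difference was not tested. Ddx55, a helicase of large ribosomal subunit assembly (chromosome 5, 124552864 to 124569660), had a peak at 124568058 to 124568112 with a fold of 5.15 on a pileup of 26 (17.0 to 38.1). It was the highest fold among helicase peaks near a 3′ end, at 90.5% of the body, and a peak of fold 2.57 on a pileup of 27 lay just 5′ of it, at 89.7%. Dhx37, which acts in small subunit maturation (chromosome 5, 125413858 to 125434121), had 1 peak at 99.1% of the body with a fold of 3.12 on a pileup of 22. Ddx10, Ddx56 and Dhx33 were listed only through peaks outside them, and Ddx18, Ddx24, Ddx27, Ddx31, Ddx47, Ddx49, Ddx51, Ddx52 and Ddx54 had no row in the table used.

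Of 4 mRNA export helicases and their relatives, 1 was overlapped. Ddx19b, a DBP5-type helicase of the nuclear pore (chromosome 8, 111003188 to 111031751), held 6 peaks, as many as any member. They spanned 2713 bp at the 3′ end, from 90.2% to 99.2% of the body. Their folds ran from 2.11 to 3.64 and their pileups from 23 to 58. The most 3′ of them, at 111003267 to 111003485, had a fold of 3.16 on a pileup of 58 over an input level of 17.7. Its -log10 q of 9.53 was the second largest of the 31. Its neighbour Ddx19a, 5387 bp away on the same strand, was overlapped by none: 6 of the 7 peaks paired with it were those inside Ddx19b, and the other was 205 bp beyond its 3′ end, with a fold of 1.90 on a pileup of 40. Whether tags of 36 bases separate these close relatives was not tested. Ddx25 and Ddx39a had no row in the table used.

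Among helicases of translation, cytoplasmic mRNA complexes and decay, 1 of 7 was overlapped. Dhx36, which unwinds G-quadruplexes in RNA (chromosome 3, 62468013 to 62507004), held 2 peaks at its 3′ end, with folds of 2.84 and 1.94 on pileups of 28 and 38. A further 5 peaks paired with it lay outside it, 4 in Gpr149 and 1 in Arhgef26, and the fold of 8.77 in the table for Dhx36 belongs to a peak in Gpr149, 22533 bp away. Dhx9 was listed only through a peak in Npl, and Ddx1, Ddx20, Ddx3x, Dhx29 and Dhx34 had no row. Of 3 innate sensors, Ddx58, which encodes the viral RNA sensor RIG-I (chromosome 4, 40203773 to 40239828), had 1 peak with a fold of 2.84 on a pileup of 26, at 96.4% of the body. A peak with a fold of 4.33 that was also paired with Ddx58 lay 4869 bp beyond its 3′ end, in the RefSeq body of Aco1. Ddx60 and Dhx58 had no row, nor had the mitochondrial helicases Ddx28 and Dhx30, the germ cell expressed Ddx43, or Ddx11, which encodes a DNA helicase.

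The highest fold in the family was in Dhx32, a DEAH box gene whose role is less well known (chromosome 7, 133720942 to 133782726). It held 6 peaks within 1209 bp near the middle of the gene, between 133757332 and 133758540, at 39.2% to 41.1% of the body. From the lowest coordinate upward their folds were 4.18, 5.38, 3.39, 7.03, 7.94 and 6.15, on pileups of 15, 12, 12, 11, 12 and 8. All were low pileups, so counting error is large: the peak of fold 7.94 had an interval of 6.20 to 21.0 for its 12 tags. Its input level was 0.637, or 0.9 input tags before scaling, and the error of that level is not in the interval. Dhx32 had no peak at a pileup of at least 20 and none in the last 10% of the body. The only other RefSeq gene found under helicase peaks inside their own gene was Gm52289, a long noncoding RNA gene beneath 2 of the 3 peaks of Dhx57.

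Dhx57, a less studied DEAH box gene (chromosome 17, 80238304 to 80290476), had peaks at 80.8%, 92.9% and 99.7% of the body. Their folds were 3.97, 3.93 and 3.18 on pileups of 17, 28 and 45, so fold was lowest and pileup highest at the 3′ end. Without strand, the 2 peaks over Gm52289 cannot be assigned to one gene. Ddx59 was listed only through a peak in the noncoding gene 9230116N13Rik, 2229 bp upstream.

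**Figure D2:**
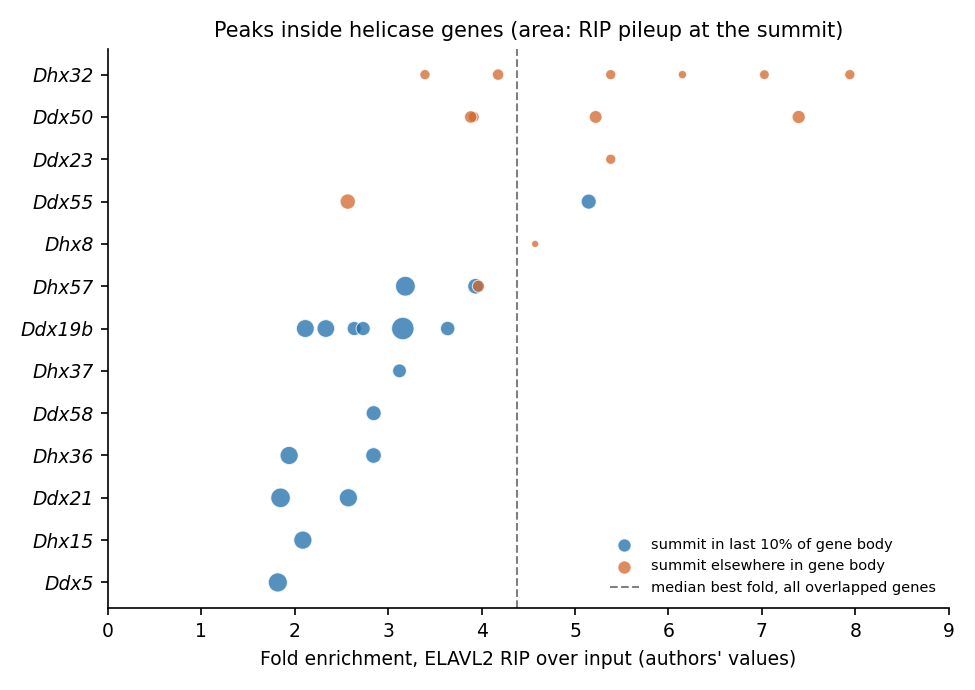
Fold enrichment of ELAVL2 RIP over input (horizontal axis, linear) for each of the 31 peaks inside the 13 overlapped helicase genes, 1 row per gene, ordered by best fold. Point area is the RIP pileup, blue points have a summit in the 3′-most 10% of the gene, orange points lie elsewhere, and the dashed line is the median best fold of 4.38 over all overlapped genes. Dhx32 and Ddx50 lead with small orange points, while most blue points are larger and sit below a fold of 4.

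Helicase peaks were divided by position into a 3′ set and an inner set. Position is the percent of the whole annotated gene body with introns. Summits were not placed in exons, introns or untranslated regions. Of the 31 peaks, 17 (54.8%, exact binomial 95% interval 36.0 to 72.7) had a summit within the final 10% of the annotated gene, against 46.6% of all 19371 peaks in exactly 1 gene. Peaks of 1 gene are not independent, so the interval is too narrow. By gene, 7 of 13 had all their peaks in the last 10% (Ddx19b, Ddx21, Ddx5, Ddx58, Dhx15, Dhx36 and Dhx37), 4 had none there (Dhx32, Ddx50, Ddx23 and Dhx8), and Ddx55 and Dhx57 had both. Genes with exactly 1 peak, 6 of the 13, could only have all or none there. The same split over all overlapped genes is not given here, so nothing particular to helicases is read from it. None of the 56 RefSeq promoter windows of Ddx or Dhx genes, from 250 bases before to 50 after the start, was overlapped by a deposited peak. Over all genes 107 of 32619 such windows were (0.328%), so the 0 is no trait of helicases.

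The sets differed in pileup and fold. The 3′ peaks had pileups of 22 to 58 (median 36) and folds of 1.82 to 5.15 (median 2.73). The 14 inner peaks had pileups of 6 to 27 (median 13) and folds of 2.57 to 7.94 (median 4.90). The largest pileup, lowest fold and largest input level of the inner set were those of 1 Ddx55 peak, at 89.7% of the body. It lay just 5′ of the Ddx55 peak at 90.5%, which is in the 3′ set. Over all peaks in exactly 1 gene the medians ran the same way, 34 tags and a fold of 2.84 in the last 10% against 20 tags and 3.82 elsewhere, so the direction was not particular to helicases. Dhx32 and Ddx50 held 10 of the 14 inner peaks. Without these genes, 17 of 21 peaks (81.0%) lay in the last 10%, and the 4 inner peaks had a median fold of 4.27 and a median pileup of 14.5. This removal was chosen after seeing the data, and neither gene had a 3′ peak, so the share could only rise. The share also followed the threshold: 89.5% of helicase peaks with a pileup of at least 20 lay in the last 10%, but 10.0% of those with a fold of at least 4. The shares of all peaks at these thresholds are not given here. The 46.6% over all peaks had no threshold, so it is not a like comparison.

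**Figure D3:**
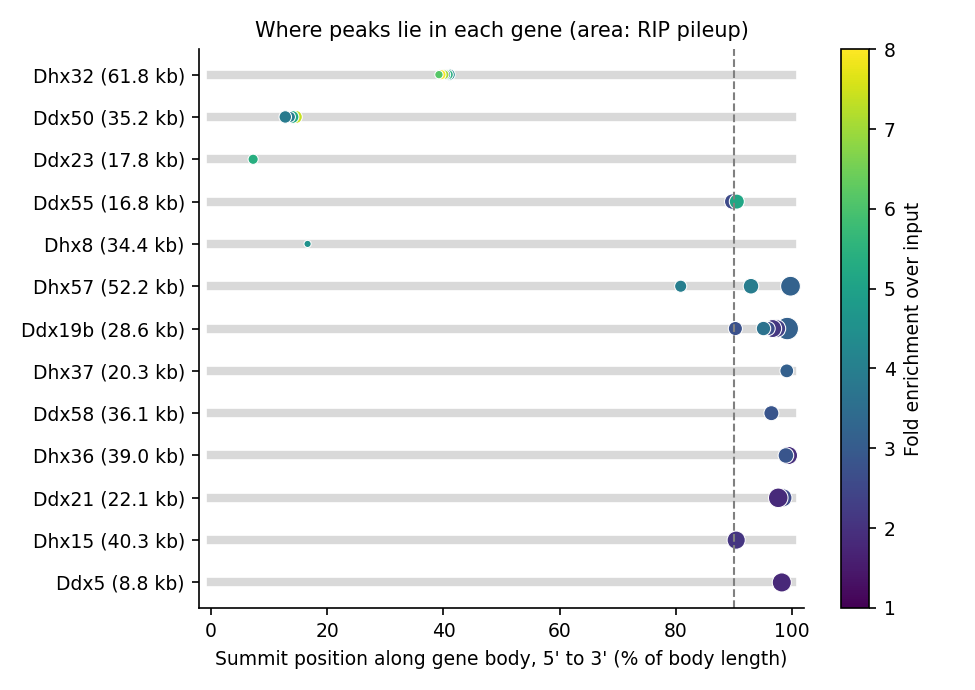
Position of each peak summit along the gene body from the 5′ end (0%) to the 3′ end (100%) for the 13 overlapped helicase genes, with body length in kb beside each name. Colour gives the fold, area gives the RIP pileup, and the dashed line marks 90%. Points gather at the right in 9 genes, while those of Dhx32, Ddx50, Ddx23 and Dhx8 lie left of the middle.

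The input level moved with both. It ranged from 4.25 to 23.4 scaled tags (median 13.4) under the 3′ helicase peaks and from 0.464 to 9.91 (median 2.34) under the inner ones. The part of the input level in the difference between the sets was not tested. The lowest level under a helicase's best peak was 0.531 in Dhx8, followed by 0.637 in Dhx32, and the highest was 22.6 in Ddx5. Without the 1 added to both sides of the ratio, the best fold was 18.8 in Dhx32, 11.3 in Dhx8 and 8.48 in Ddx23, each more than 1.5 times its deposited value.

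Helicase peaks were then set against all peaks of like input level. All peaks in exactly 1 gene were put into 20 bins of input level, and 11 of the 31 helicase peaks were above the median fold of the nearest bin, 6 of them above its upper quartile. Those 6 were in Dhx32 (folds 7.94 and 7.03), Ddx50 (7.39), Ddx55 (5.15), Dhx57 (3.18) and Ddx19b (3.16). Only the Ddx19b peak, with its pileup of 58, was above the 95th percentile, which was 2.89 at that input level. The counts of 11, 6 and 1 of 31 were no more than the shares of all peaks that define these percentiles. As a set, helicase peaks were thus not high for their input level. The order by fold therefore differed from the order within input levels: Ddx23 and Dhx8, among the 5 highest by fold, were at or below the median of their bins, which was 5.38 and 5.86.

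**Figure D4:**
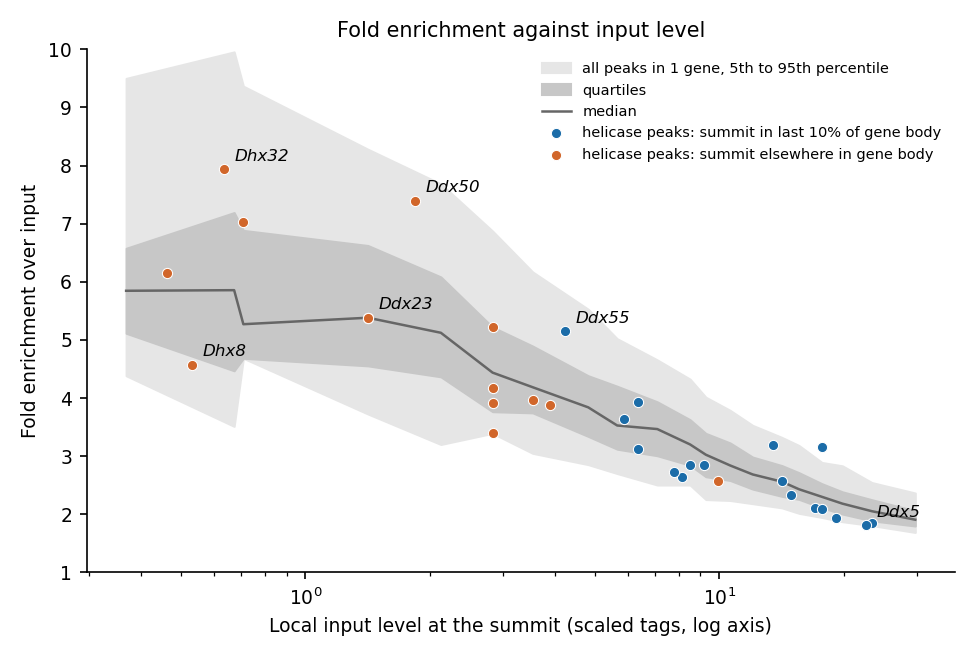
Fold enrichment (vertical axis, linear, from 1) against local input level in scaled tags (horizontal axis, log scale) for helicase peaks, blue for summits in the 3′-most 10% of the gene and orange elsewhere. Grey bands give the quartiles and the 5th to 95th percentile of all peaks in exactly 1 gene, and the line their median. Helicase peaks follow the fall of fold with input level, and 11 of 31 lie above the median.

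The 7 genes without a peak inside them were of different kinds. Peaks paired with Dhx33 (6, best fold 5.64, -log10 q 13.5), Ddx59 (1, fold 2.97) and Dhx9 (1, fold 2.58) all lay in a neighbouring gene, which was Derl2 for Dhx33. Those of Ddx10, Dhx35 and Ddx56 lay in no annotated gene, all beyond the 3′ end. The Ddx10 peak was 584 bp beyond it with a fold of 5.38 on a pileup of 12, the Dhx35 peak 1207 bp beyond with 5.44 on 16, and the 2 Ddx56 peaks 3010 and 3335 bp beyond with 2.66 and 2.67 on 28 and 30. These distances are to the 3′ ends annotated in the authors' table. RefSeq places the 3′ end of Ddx56 farther out, at 6257545, still short of its 2 peaks. Whether the Ddx10, Dhx35 and Ddx56 peaks come from longer forms of the helicase transcripts was not tested. Ddx55 was likewise paired with 5 peaks that lie in Tmed2. Of all 30 pairings of a helicase with a peak outside it, 24 concerned a peak inside another gene of the table.

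Other RNA helicases, without a Ddx or Dhx symbol, were listed for comparison. The RefSeq table lists 21 of them, and a peak fell within the RefSeq body of 8, where 24.4% of all coding genes held one. Of the 21, 10 had a row in the authors' table and 9 of these were overlapped, where 51.4% of all genes in the table were. Their median best fold was 6.01, but 3.56 over peaks with a pileup of at least 20, where the Ddx and Dhx genes had 2.98 and all overlapped genes 3.30. A fold of at least 4 was reached by 5 of the 9, near the 57.2% of all overlapped genes, and by 2 at a pileup of at least 20, near the 22.2%. They were also longer genes, with a median RefSeq body of 50.6 kb over the 21 against 21.5 kb for the 50 Ddx and Dhx genes. Ascc3, a DNA repair and ribosome quality control helicase, had the most peaks, 11, and the longest body of the 9, 258.53 kb. It also had the highest fold, 8.03, on a pileup of 13, but 5.74 at a pileup of at least 20. By best fold, the meiotic genes Hfm1 and Ythdc2 followed with 7.61 (pileup 12) and 7.36 (pileup 22). Ythdc2 and Dicer1, the microRNA-processing enzyme, had 7 peaks each. The piRNA pathway helicases Mov10l1 and Tdrd9 had best folds of 7.04 and 6.01, each on a pileup of 16. Eif4a1, a translation initiation helicase that has the DEAD motif but no Ddx symbol, had 5 peaks with a best fold of 2.42, nearer to the values of Ddx5 and Ddx21. The single Aqr peak, with a fold of 3.92, lay outside the RefSeq body of that gene. The difference between these lists was not tested.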

How the data were processed

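RNA from 1 ELAVL2 RIP and 1 input sample of P0 mouse ovary was amplified as antisense RNA and read from 1 end over 36 bases, per the labels' protocols. The submitters' processing notes name TopHat2 2.0.8b, the build mm10, MACS2 2.1.0.20140616, FastQC 0.11.2 and CASAVA 1.8.2. Per the file headers, 3 lanes per sample were pooled and peaks called without a model, at a q cutoff of 0.05, with tags extended to 50 bp and 1 tag kept per position. Pileup is therefore capped, and strand and splicing are ignored. The signal (pileup), the fold (a ratio) and the -log10 q were deposited by the authors. The tool that paired peaks with genes is not given in those sources. Of 85730 table rows, 43554 were left after exact repeats were dropped.

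Input level was computed as (pileup + 1) / fold - 1, and -log10 p recomputed from it differed from the authors' by at most 5.62e-05. The input was scaled by 0.708. RefSeq bodies were overlapped by at least 1 bp. The functions were tested on simulated data. Role lists, members and named genes were chosen with earlier results of these data known; every member may be named, with full values for the 10 ranked first by peaks, fold, fold at a pileup of 20 or more, or -log10 q. Genome sequence at the peaks was not used here. Python 3.11.15, pandas 2.3.3, numpy 2.4.6, scipy 1.17.1 and matplotlib 3.10.9 were used.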

Additional observations from a re-analysis of the deposited data

How the results depend on the processing

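The count of 13 overlapped helicases was 13 with peaks overlapping exactly 1 gene, and 13 with RefSeq bodies of the genes in the authors' table. Over all 50 RefSeq Ddx and Dhx genes it was 14, with Ddx51 added. It was 11 without Dhx32 and Ddx50 (an alternative chosen after seeing the data) and 10 at a pileup of at least 20. It was 5 at a -log10 q of at least 5, 5 at a fold of at least 4, 6 from peaks paired with exactly 1 gene, and 20 with nearest genes included. The median of 2 peaks per gene became 1 at a fold of at least 4, from peaks paired with 1 gene, without Dhx32 and Ddx50, and with peaks within 100 or 1000 bp merged. The median best fold stayed between 2.98 and 5.38 under all alternatives run. The share in the last 10% was 89.5% at a pileup of at least 20, 10.0% at a fold of at least 4, 81.0% without Dhx32 and Ddx50 and within 1.5 times of 54.8% under the others. For pileup and fold these follow from the thresholds, since the 3′ peaks had more tags and lower folds. The other settings named add, merge or leave out peaks or genes by construction. No paired analysis was possible because each arm had 1 sample. Pileups of 6 to 15 tags limit Dhx32, Dhx8 and Ddx23 most.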
